A study of Mus musculus with 6 samples.

Results

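The 43 genes described here are markers of the endothelium of the heart and its vessels. They were picked by name from what is known of them, at a point when earlier results of these data were known. The count table of native cardiac fibroblasts (CFs) holds 49548 genes, and all 43 passed the filter on low counts. They comprise 26 genes that most endothelial cells use (junction and surface proteins, receptors and signalling proteins, transcription factors) and 17 genes that mark arteries, veins, capillaries, endocardium and fenestrated vessels, or lymphatics. mRNA from 3 WT and 3 CharmeKO libraries was sequenced, from C57BL/6J mice aged 5 weeks. CharmeKO mice carry a polyA signal inserted into the locus of *Charme*, a long non-coding RNA of heart and skeletal muscle, and the insertion is present in every cell of the animal. Native CFs were obtained by dissociating the heart, lysing red cells and removing cells of the blood lineages with magnetic beads, and no step removed endothelial cells. The labels also list a growth medium on fibronectin, whereas the methods describe these cells as freshly isolated.

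Endothelial cells line every vessel and are held together by VE-cadherin and tight junction proteins. Their identity is kept by ETS factors such as ERG, by SOX factors of the F class and by the receptors TIE1 and TIE2, and each vessel bed adds genes of its own. In the heart, capillaries are by far the most common bed, the endocardium lines the chambers, and fenestrated vessels, which are leaky, are rare.

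Counts on genes ranged from 9595701 to 42101393 over the 6 libraries, and 3 counts, the limit that a count of 0 allows, corresponded to between 0.0713 and 0.313 CPM, a gene's count relative to the size of its library. Levels are given as CPM after TMM normalization. The targeted gene *Charme* had 26, 15 and 4 counts in WT and 7, 0 and 0 in CharmeKO libraries, not scaled for library size. The library labelled CharmeKO replicate 1 thus held some counts on the gene. Whether they came from RNA made before the inserted polyA signal was not tested. *Xist* had 16783 counts in WT replicate 1 and 13553 and 9196 in CharmeKO replicates 1 and 2, but at most 67 in the other libraries. CharmeKO replicate 1 also had between 17 and 59 counts on each of 4 Y-linked genes, and the split by *Xist* was not balanced between the groups. The labels do not tie a library to a mouse, so p-values measure the spread between libraries.

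Endothelial transcripts were abundant in these libraries. The 43 genes took between 1.62% and 2.19% of all counts in each library. The share was 1.73%, 2.13% and 1.62% in WT replicates 1 to 3 and 1.81%, 2.19% and 1.90% in CharmeKO, so the groups overlapped. Divided by gene length, as CPM per kb, the median endothelial gene was at 66.6 against 3.39 for all tested genes. Of the 43 genes, 4 were within the highest 1% of the 15764 tested genes with a known length, 24 within the highest 5%, and 42 within the highest 50%. *Cdh5*, which encodes VE-cadherin, ranked 59 at 484 CPM per kb, next to the fibroblast collagen gene *Col1a1* at 490 CPM per kb and rank 58. *Kdr*, which encodes the VEGF receptor CD309, was at 109 CPM per kb and 8 of 13 fibroblast markers lay above it, while *Pdgfra*, a receptor of fibroblasts, lay below it at 42.0 CPM per kb. Per the study's methods, the isolated cells had been tested by flow cytometry for the absence of CD309, and *Kdr* mRNA was at 853 ± 98.7 normalized CPM in WT and 1109 ± 125 in CharmeKO (SD, n = 3 each). Fibroblast markers were present as well, with 13 of them together at 3.52% of normalized counts against 1.36% for the 26 core endothelial genes. Most of that fibroblast sum was *Gsn*, which encodes the actin-severing protein gelsolin, and the other 12 markers were at 1.42%. In RNA from a mixed cell preparation, fewer cells of a type and less RNA per cell cannot be told apart.

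**Figure D1:**
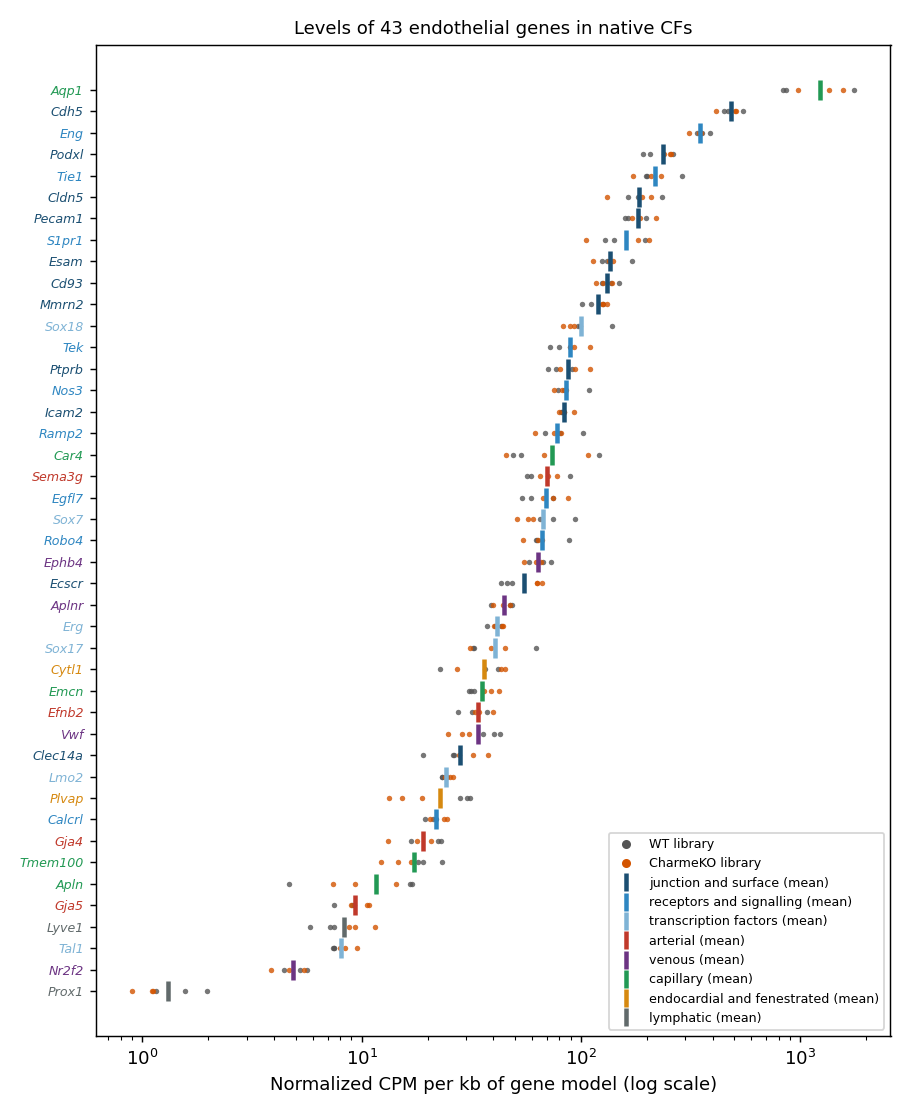
Levels of the 43 endothelial genes, in normalized CPM per kb of gene model on a log scale, with grey points for the 3 WT and orange points for the 3 CharmeKO libraries and a vertical mark at the mean of all 6, coloured by role. *Aqp1* lies highest at 1229 CPM per kb, followed by *Cdh5* and *Eng*, and *Prox1* lies lowest at 1.31 CPM per kb.

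The question asked of these genes is whether loss of Charme, which the study follows in CFs, came with a shift of the endothelial transcripts in the same preparation. They lay in both directions, with 21 of the 43 higher and 22 lower in CharmeKO, with a median log2 fold change of −0.02 against 0.01 over all 15789 tested genes. The sign of that median depended on the libraries used, from −0.094 without CharmeKO replicate 2 to 0.072 without WT replicate 2. One gene passed the threshold of an adjusted p of 0.05 in edgeR's quasi-likelihood test, *Plvap*, which fell. Among all tested genes 131 passed, which is 0.83%. In DESeq2 3 of the 43 passed, *Plvap* and *Vwf* lower and *Ecscr* higher, against 2.5% of all tested genes. By unadjusted p under 0.05 in edgeR, 10 of the 43 passed, 4 higher and 6 lower, against 12.8% of all tested genes, and in 12 of the 43 the groups did not overlap, against 18.2%. As shares of the 43 genes these counts are 2.33% in edgeR, 6.98% in DESeq2, 23.3% by unadjusted p and 27.9% by overlap. No test was made of these shares against the background. Without a filter on low counts, edgeR called 699 of 24579 genes, which is 2.84%, and 6 of the 43, the 3 above with *Clec14a*, *Sox7* and *Lyve1*.

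The changes were also small in size. A log2 change of more than 0.5 in either direction was seen in 6.98% of the endothelial genes and in 18.4% of all tested genes, and a change of more than 1 in 0% and 6.18%. The median level was 222 CPM for the endothelial genes and 14.4 CPM for all tested genes. The shares were not compared among genes of like level, so they do not show that endothelial genes changed less than genes measured as well. The spread between libraries of one group, as the median SD on the log2(CPM + 1) scale, was 0.192 for the endothelial genes and 0.198 for all tested genes. That scale narrows the spread of genes with low CPM. Counts were also simulated at the sizes of these libraries, with the same dispersion for every gene. There edgeR recovered 109 of 200 genes changed by 1 on the log2 scale and 179 of 200 changed by 1.5. The changed genes were drawn from all tested genes, so these numbers do not give the recovery of endothelial genes, which had higher levels. Changes between 0 and 1 were not simulated.

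**Figure D2:**
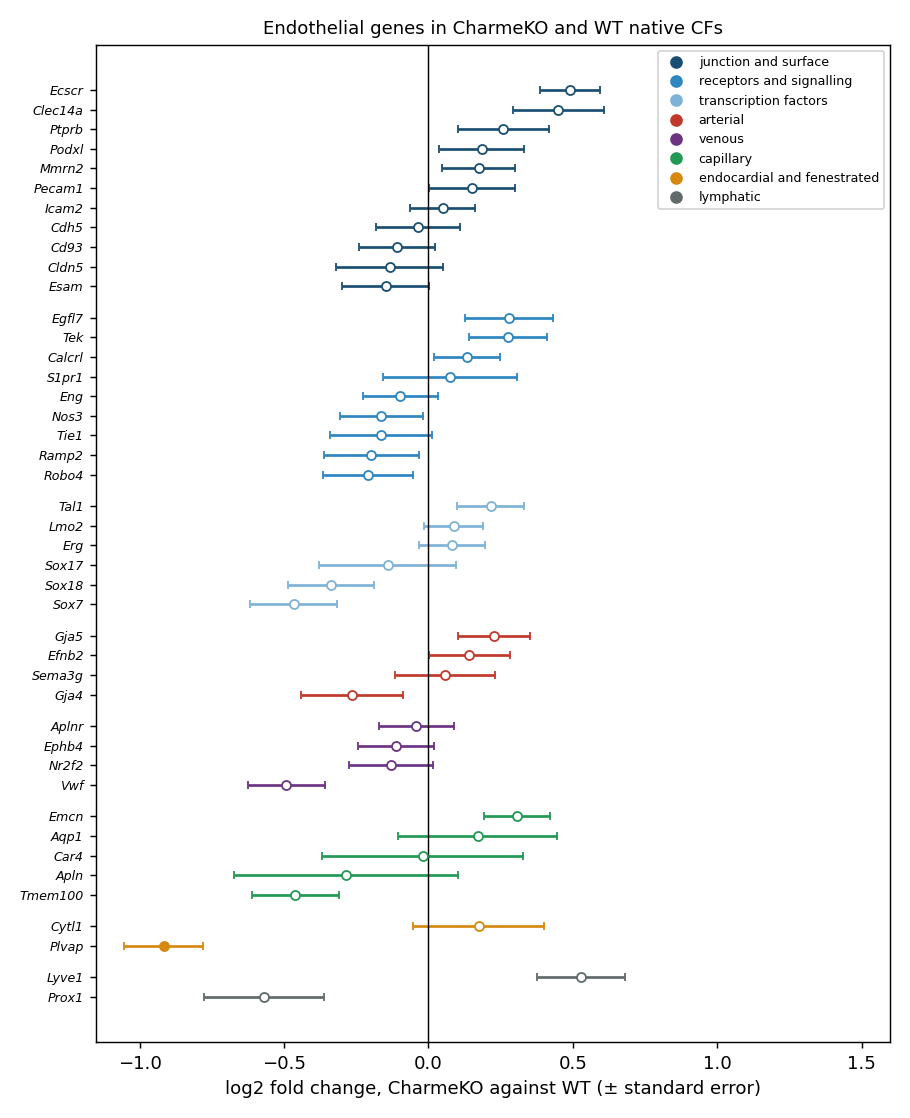
Log2 fold change of CharmeKO against WT (x axis) for the 43 genes, grouped and coloured by role, with bars of 1 standard error from edgeR. The filled point, *Plvap* at −0.92, is the gene with an adjusted p under 0.05, and open points are the others.

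The letters bound by the factors that keep endothelial identity were searched in the promoters of these genes, and the promoters of the receptor gene *Robo4* and of the sialomucin gene *Emcn* are shown as examples with an ETS match. Of the 43 genes, 22 had a start listed in the RefSeq table of GRCm38.p6, with windows from 250 bases before to 50 after the start. The 250 bases before the start are printed on the gene's strand, with the ETS letters CAGGAAG (or CTTCCTG on the other strand) in capitals. The *Robo4* stretch is chr9:37401722-37401971 on the plus strand, where the match begins 50 bases before the start. The *Emcn* stretch is chr3:137340828-137341077 on the plus strand, with the match at 174 bases before the start.
Robo4: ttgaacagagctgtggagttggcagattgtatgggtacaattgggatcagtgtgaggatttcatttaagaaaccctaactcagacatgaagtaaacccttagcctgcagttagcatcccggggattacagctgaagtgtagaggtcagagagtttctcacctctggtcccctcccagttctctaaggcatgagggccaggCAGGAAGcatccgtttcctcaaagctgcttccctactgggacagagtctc
Emcn: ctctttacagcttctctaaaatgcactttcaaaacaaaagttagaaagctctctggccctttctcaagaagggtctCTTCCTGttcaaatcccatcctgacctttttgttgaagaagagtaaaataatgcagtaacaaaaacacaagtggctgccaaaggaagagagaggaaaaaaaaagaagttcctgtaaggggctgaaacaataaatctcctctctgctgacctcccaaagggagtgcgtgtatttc
On either strand, CCGGAAG or CAGGAAG stood in windows of 7 of the 22 genes (31.8%), against 30.5% of tested genes and 23.1% of all genes with a window. The SOX letters ACAAAGG or ACAATGG stood in 3 of 22 (13.6%), against 7.98% and 10.5%, and the GATA letters AGATAA in 3 of 22 (13.6%), against 7.88% and 12.7%. Matches are descriptions of letters, and *Robo4* and *Emcn* themselves had log2 fold changes of opposite sign, −0.21 and 0.31.

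Among the 11 genes of junctions and the endothelial surface, 7 were higher and 4 lower in CharmeKO, with a median log2 fold change of 0.15, and 0 passed the threshold in edgeR. *Cdh5* had the highest level of them, at 1890.1, 2312 and 1974 CPM in WT replicates 1 to 3 and 1737, 2131 and 2157 CPM in CharmeKO. The groups overlapped, with a log2 fold change of −0.04 (SE 0.15, 95% interval −0.36 to 0.28, adjusted p = 0.945 in edgeR's quasi-likelihood test). The platelet and endothelial adhesion molecule gene *Pecam1*, at 1081 ± 133 and 1199 ± 160.4 CPM (SD, n = 3 each, WT first here and throughout), also overlapped between the groups.

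*Ecscr* (ENSMUSG00000073599), which encodes a small surface protein of endothelial cells that regulates their movement, was at 75.6, 81.0 and 84.8 CPM in WT and at 111, 117 and 111 CPM in CharmeKO. All CharmeKO libraries lay above all WT libraries, and within each group the values were close together, with an SD of 0.07 on the log2(CPM + 1) scale. The log2 fold change was 0.49 (SE 0.10, 95% interval 0.26 to 0.72). Its adjusted p was 0.0619 in edgeR and 0.00543 in DESeq2, so it passed in one tool and not in the other. In the other edgeR fits it passed without the filter on low counts (0.0126), with the replicate number as a block (0.0351) and without WT replicate 2 (0.0432).

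*Clec14a*, a C-type lectin of the endothelial surface, was at 119, 121 and 86.9 CPM in WT and at 148, 173 and 127 CPM in CharmeKO. The groups did not overlap, although CharmeKO replicate 3 lay only just above the WT libraries. The log2 fold change was 0.45 (SE 0.16, unadjusted p = 0.0149, adjusted p = 0.268 in edgeR). Multimerin 2, encoded by *Mmrn2*, is a matrix ligand of both CLEC14A and CD93. *Mmrn2* was at 449.8 ± 51.4 and 507 ± 14.2 CPM and *Cd93* at 918 ± 80.7 and 851 ± 69.8 CPM, with overlapping groups in both. The other genes of the group, *Podxl*, *Ptprb*, *Icam2*, *Cldn5* and *Esam*, had log2 fold changes between −0.15 and 0.26 and adjusted p-values in edgeR between 0.527 and 0.895.

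None of the 9 receptor and signalling genes passed the threshold in edgeR or DESeq2, and none had an unadjusted p under 0.05 in edgeR. Their median log2 fold change was −0.10, with 4 higher and 5 lower. *Eng*, which encodes the TGFβ co-receptor endoglin, was the highest, at 1441, 1570.3 and 1369 CPM in WT and 1265, 1398 and 1430.2 CPM in CharmeKO. These values overlapped, with a log2 fold change of −0.10 (SE 0.13, 95% interval −0.38 to 0.19, adjusted p = 0.811 in edgeR). The angiopoietin receptor TIE2 is encoded by *Tek*, which was at 379 ± 38.6 and 459 ± 51.7 CPM. It was the gene of this group whose libraries did not overlap, but they were barely apart, with WT replicate 2 at 420 CPM and CharmeKO replicate 1 at 421 CPM. Its log2 fold change was 0.28 (adjusted p = 0.425 in edgeR). *Tie1*, its orphan partner receptor, was at 1128 ± 257 and 1006 ± 147 CPM. Within each library, the log2 ratio of *Tek* to *Tie1* was −1.56 ± 0.19 in WT and −1.13 ± 0.22 in CharmeKO, and the pair was chosen after the values were seen.

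The adrenomedullin receptor is built of *Calcrl* and *Ramp2*, which were at 101.7 ± 5.95 and 112 ± 10.2 CPM and at 276 ± 57.0 and 241 ± 32.8 CPM, respectively. In the gene models 33.4% of the exon bases of *Ramp2* also belong to *Vps25*, so its counts are uncertain. The endothelial nitric oxide synthase gene *Nos3* had a log2 fold change of −0.16, and the sphingosine-1-phosphate receptor gene *S1pr1* had 0.08. *Robo4*, a guidance receptor that stabilizes vessels, had −0.21. *Egfl7*, which encodes a secreted factor of vessel formation, had 0.28, with 7.37% of its exon bases shared with another gene model.

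Of the 6 transcription factor genes, 3 were higher and 3 lower, and the 3 lower ones were the SOX factors of the F class. *Sox7* had the highest CPM and was at 214, 311 and 246 CPM in WT and at 189, 168 and 201 CPM in CharmeKO. The groups did not overlap, although WT replicate 1 lay near CharmeKO replicate 3. Its log2 fold change was −0.47 (SE 0.15, unadjusted p = 0.00963, adjusted p = 0.238 in edgeR and 0.0672 in DESeq2). *Sox18*, mutated in human disorders of hair and lymphatics, was at 161, 225 and 157 CPM in WT and 145, 151 and 134 CPM in CharmeKO. All CharmeKO values lay below the WT values, with WT replicate 2 standing above the other WT libraries. The log2 fold change was −0.34 (SE 0.15, unadjusted p = 0.0440, adjusted p = 0.377 in edgeR). *Sox17*, an arterial factor, was at 203 ± 82.8 and 184 ± 33.3 CPM with overlapping groups. Its log2 fold change of −0.14 turned to 0.02 with a term for the *Xist* and Y-linked split and ranged from −0.30 to 0.25 over fits that each lacked a library. None of the 3 SOX genes passed the threshold in edgeR or DESeq2 with the filter on low counts, and *Sox7* passed in edgeR without it (adjusted p = 0.0412).

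The other factors did not share this direction. *Erg*, the ETS factor that maintains endothelial identity, was at 139.7 ± 10.5 and 148 ± 7.67 CPM. The blood and endothelial factor genes *Tal1* and *Lmo2*, whose proteins work in one complex, were at 32.6 ± 0.06 and 37.9 ± 3.57 CPM and at 51.2 ± 1.54 and 54.4 ± 2.05 CPM. The groups of *Tal1* did not overlap, with a log2 fold change of 0.22 (adjusted p = 0.474 in edgeR). The log2 ratio of *Sox7* to *Erg* within a library was 0.87 ± 0.23 in WT and 0.33 ± 0.20 in CharmeKO, a pair also chosen after the values were seen.

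Arterial genes showed no gene past the threshold in edgeR or DESeq2 and no gene whose groups were apart. *Sema3g*, which encodes a secreted semaphorin of arterial endothelium, was the highest at 269.6, 406 and 257 CPM in WT and 321, 353 and 297 CPM in CharmeKO. WT replicate 2 stood above all other libraries and the remaining WT libraries below all CharmeKO libraries. The log2 fold change was 0.06 (SE 0.17, 95% interval −0.32 to 0.44, adjusted p = 0.922 in edgeR). The gap junction genes of arteries moved apart from each other, *Gja4* with −0.27 and *Gja5* with 0.23, both with overlapping groups. *Efnb2*, the arterial ligand of the receptor EPHB4 found on veins, had 0.14.

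All 4 venous genes had a negative log2 fold change, with a median of −0.12. *Vwf* (ENSMUSG00000001930), which encodes the von Willebrand factor stored in endothelial granules for clotting, was the highest of them. It was at 688, 644 and 575 CPM in WT and at 398, 462 and 496 CPM in CharmeKO, and all CharmeKO libraries lay below all WT libraries. The log2 fold change was −0.49 (SE 0.13, 95% interval −0.79 to −0.20), with an adjusted p of 0.159 in edgeR and 0.00906 in DESeq2. In the fits that each lacked a library, the change ranged from −0.56 to −0.41. Set against *Cdh5* in the same library, *Vwf* was at a log2 ratio of −1.69 ± 0.21 in WT and −2.15 ± 0.05 in CharmeKO. The other venous genes had overlapping groups: *Ephb4* at 307 ± 35.4 and 284 ± 24.98 CPM, the apelin receptor gene *Aplnr* at 167 ± 20.1 and 162 ± 14.3 CPM, and the venous identity factor gene *Nr2f2* at 43.9 ± 5.31 and 40.3 ± 6.73 CPM. *Selp*, which encodes P-selectin of the same granules as von Willebrand factor, was at 17.95 ± 3.50 and 14.5 ± 1.22 CPM with an adjusted p of 0.453 in edgeR.

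**Figure D3:**
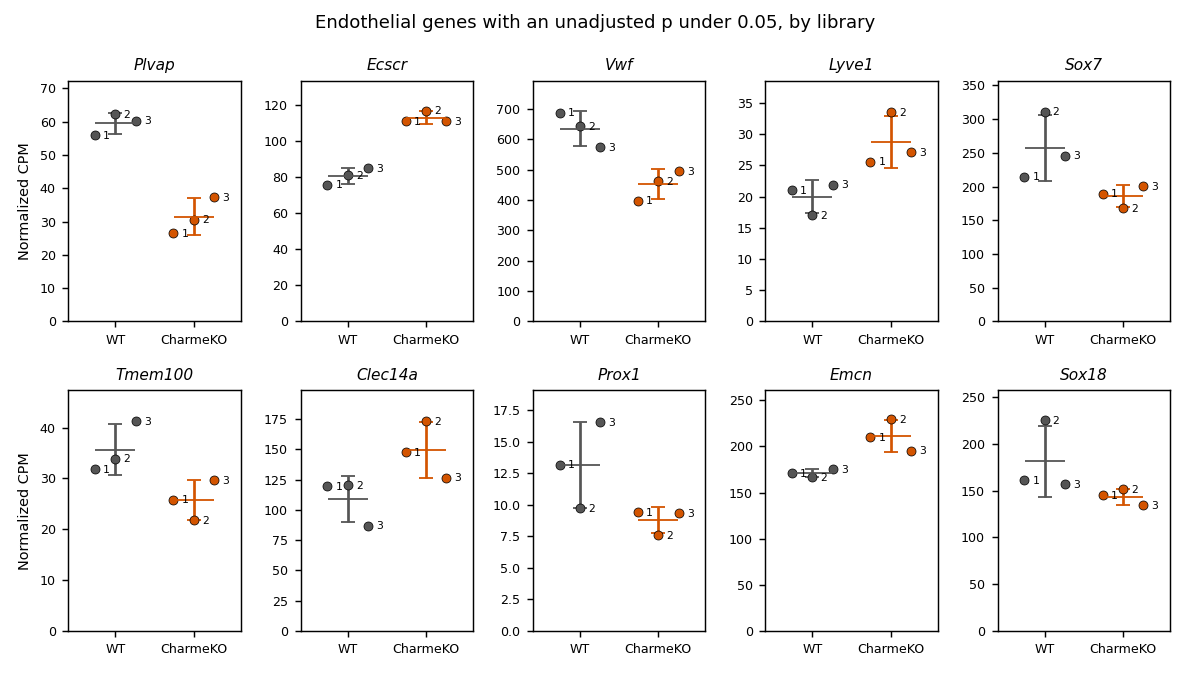
Normalized CPM (y axis, from 0) of the 10 endothelial genes with an unadjusted p under 0.05 in edgeR, for WT (grey) and CharmeKO (orange), with the replicate number beside each point and the mean with SD as a line and bar. In all 10 genes the WT and CharmeKO points do not overlap and in *Prox1* they are barely apart.

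The capillary genes were the most variable, with a median SD between libraries of one group of 0.498 on the log2(CPM + 1) scale against 0.192 for all 43 genes. *Aqp1*, the water channel of capillary endothelium and red cells, had the highest level of all 43 genes and ranked 20 per kb. It was at 2260.3, 4654 and 2198 CPM in WT and at 2577, 4118 and 3563 CPM in CharmeKO. Replicate 2 was the highest library in each group and the groups overlapped, with a log2 fold change of 0.17 (SE 0.28, 95% interval −0.43 to 0.78, adjusted p = 0.848 in edgeR). *Car4*, a carbonic anhydrase on the luminal face of capillaries, followed the same order, with 239 CPM in WT replicate 2 and 213 CPM in CharmeKO replicate 2 against 89.8 to 134 CPM in the other 4 libraries. *Apln*, which encodes the peptide ligand of APLNR and is raised in endothelial tip cells, was lowest in replicate 2 of each group, at 14.7 and 23.3 CPM. It was between 29.5 and 53.4 CPM in the other libraries. These differences between libraries of one group were larger than the differences between the groups, and for *Car4* and *Aqp1* the sign of the fold change depended on which library was left out.

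**Figure D4:**
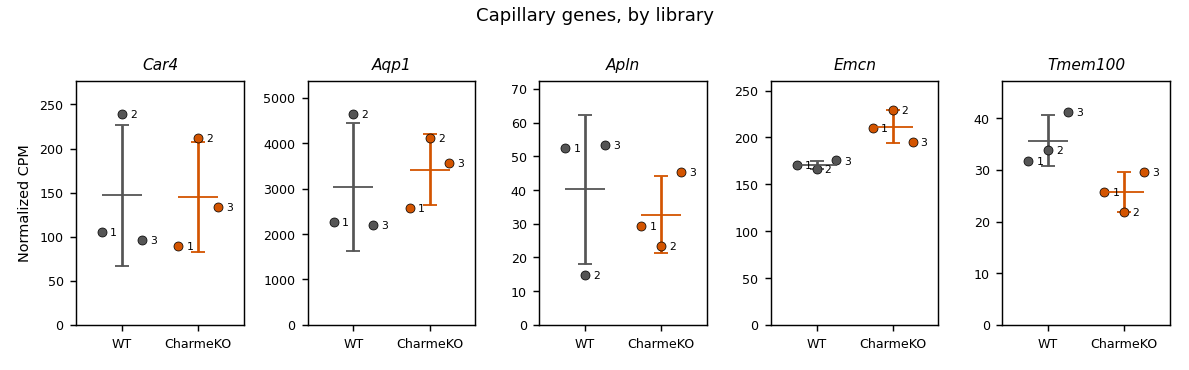
Normalized CPM (y axis, from 0) of the 5 capillary genes in each WT (grey) and CharmeKO (orange) library, with the replicate number beside each point and mean ± SD as a line and bar. *Car4* and *Aqp1* are highest and *Apln* lowest in replicate 2 of both groups, whereas *Emcn* and *Tmem100* separate the groups.

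*Emcn*, which encodes the sialomucin endomucin of capillaries and veins, was steadier. It was at 171, 167 and 175 CPM in WT and at 209.8, 229.6 and 195 CPM in CharmeKO, with every CharmeKO library above every WT library. The log2 fold change was 0.31 (SE 0.11, unadjusted p = 0.0210, adjusted p = 0.293 in edgeR). *Tmem100*, a membrane protein gene that responds to BMP9 and ALK1 signalling, was at 31.8, 33.9 and 41.3 CPM in WT and at 25.8, 21.8 and 29.6 CPM in CharmeKO. Its groups did not overlap, and its log2 fold change was −0.46 (SE 0.15, unadjusted p = 0.0102, adjusted p = 0.241 in edgeR). The capillary genes with separate groups, *Emcn* and *Tmem100*, thus lay in opposite directions.

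*Plvap* (ENSMUSG00000034845) had the largest change of the 43 genes. It encodes the protein of the diaphragms that span fenestrae, caveolae and transendothelial channels, and in the heart it marks endocardium and few vessels. Counts were 2380, 1634 and 560 in WT and 758, 747 and 1136 in CharmeKO, which is 55.9, 62.1 and 60.2 CPM in WT and 26.5, 30.5 and 37.3 CPM in CharmeKO. All CharmeKO libraries lay well below all WT libraries. The mean level was 59.4 ± 3.17 CPM in WT and 31.5 ± 5.50 CPM in CharmeKO (SD, n = 3 each). *Plvap* fell by 0.92 on the log2 scale (SE 0.14, 95% interval −1.22 to −0.62, adjusted p = 0.00791 in edgeR's quasi-likelihood test and 1.9e-06 in DESeq2).

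The direction of *Plvap* was the same in all 14 fits. In the libraries with high *Xist*, *Plvap* was at 55.9 CPM in WT and 26.5 and 30.5 CPM in CharmeKO, and in the others at 62.1 and 60.2 CPM in WT and 37.3 CPM in CharmeKO. With a term for that split the log2 fold change was −0.84 (adjusted p = 0.00908 in edgeR). With the 26 core endothelial genes used to scale the libraries it was −0.95 (adjusted p = 0.0114 in edgeR), so *Plvap* was lower also relative to the other endothelial genes. Within a library its log2 ratio to *Cdh5* was −5.11 ± 0.10 in WT and −6.00 ± 0.14 in CharmeKO. The call was lost without CharmeKO replicate 1 (adjusted p = 0.0512) or CharmeKO replicate 2 (0.0598 in edgeR), at log2 fold changes between −1.06 and −0.80 over the libraries left out in turn.

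*Cytl1*, *Npr3* and *Nfatc1*, the other genes described here for the endocardium, did not pass the threshold in edgeR or DESeq2. Genes placed in other roles, such as *Vwf*, were not sorted by their use in the endocardium. *Cytl1*, a secreted cytokine-like protein gene, was at 35.7 ± 10.5 and 40.7 ± 10.2 CPM with overlapping groups and a log2 fold change of 0.17. *Npr3*, the natriuretic peptide clearance receptor gene of the endocardium, was at 49.8 ± 2.84 and 47.7 ± 4.16 CPM (adjusted p = 0.857 in edgeR). The endocardial factor gene *Nfatc1* was at 88.0 ± 2.68 and 76.2 ± 3.25 CPM. All its CharmeKO libraries lay below all its WT libraries, with a log2 fold change of −0.21 (adjusted p = 0.424 in edgeR).

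The lymphatic genes had the lowest CPM of the 43 and opposite signs, although per kb *Nr2f2* and *Tal1* also lay below *Lyve1*. *Lyve1*, a hyaluronan receptor gene of lymphatic endothelium and of some resident macrophages, was at 21.1, 17.0 and 21.9 CPM in WT and at 25.6, 33.6 and 27.2 CPM in CharmeKO. The CharmeKO libraries all lay above the WT libraries, with a log2 fold change of 0.53 (SE 0.15, unadjusted p = 0.00494, adjusted p = 0.181 in edgeR). *Prox1*, the factor that sets lymphatic identity, was at 13.2, 9.73 and 16.6 CPM in WT and at 9.39, 7.56 and 9.34 CPM in CharmeKO. The groups were barely apart, and the log2 fold change was −0.57 (SE 0.21, unadjusted p = 0.0187, adjusted p = 0.288 in edgeR). The log2 ratio of *Lyve1* to *Prox1* within a library was 0.63 ± 0.20 in WT and 1.71 ± 0.38 in CharmeKO, a comparison made after both values were seen. Per kb, *Prox1* ranked 10614 of 15764 genes, the only one of the 43 outside the upper 50%.

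*Lyve1* is shared with macrophages, so macrophage genes were measured beside it. The other 4 tested genes of a list of resident macrophage markers summed to 4.51 ± 0.56 CPM in WT and 5.23 ± 1.15 CPM in CharmeKO, below the 20.0 ± 2.61 and 28.8 ± 4.21 CPM of *Lyve1* alone. *Folr2* and *Timd4* were too low to test, with 1 and 6 counts in all libraries together. Further lymphatic genes were *Mmrn1* at 30.6 ± 7.47 and 42.3 ± 6.51 CPM, the chemokine gene *Ccl21a* at 39.6 ± 13.9 and 50.3 ± 1.40 CPM, *Reln* at 28.8 ± 6.73 and 29.1 ± 5.57 CPM and the VEGF-C receptor gene *Flt4* at 147 ± 3.99 and 143 ± 10.5 CPM. Their adjusted p-values in edgeR were between 0.292 and 0.974.

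In a further list of 48 endothelial genes outside the 43, 29 were higher and 19 lower in CharmeKO, with a median log2 fold change of 0.05. In edgeR 0 passed the threshold, and 11 had an unadjusted p under 0.05, 8 higher and 3 lower, which is 22.9% against 12.8% of all tested genes. The groups were apart in 10 of them, 7 higher and 3 lower, which is 20.8% against 18.2%. In DESeq2 1 of the 48 passed (2.08% against 2.5%), the fatty acid transporter gene *Cd36*. Which cells of the preparation gave the *Cd36* RNA was not tested. The level of *Cd36* was 1307 ± 171 CPM in WT and 2006 ± 603 CPM in CharmeKO, a log2 difference of 0.62 (adjusted p = 0.238 in edgeR). The lipid carrier gene *Fabp4* was at 1978 ± 189.6 and 2669.8 ± 485 CPM (adjusted p = 0.291 in edgeR). *Notch4*, an endothelial Notch receptor gene, was at 516 ± 89.8 and 365 ± 70.4 CPM with overlapping groups (adjusted p = 0.262 in edgeR). *Fabp4* and *Notch4* were named after their values were seen. The smallest unadjusted p of this list was that of *Vcam1* (0.00557 in edgeR, log2 fold change 0.52). *Gpihbp1* had a log2 fold change of −0.17.

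The summed level of the 26 core endothelial genes was 12562, 15446 and 12425 CPM in WT and 12454, 14642 and 13805 CPM in CharmeKO. Replicate 2 was the highest in each group, and the groups overlapped. WT replicate 2 held the highest value of its group in 29 of the 43 genes and CharmeKO replicate 2 in 24. Fibroblast markers summed to 34460 CPM, 40186 CPM and 33926 CPM in WT and to 33886 CPM, 32105 CPM and 36966 CPM in CharmeKO, with replicate 2 highest in WT and lowest in CharmeKO. Without *Gsn*, which was left out after its values were seen, they summed to 15781 CPM, 13747 CPM and 16596 CPM in WT and to 12717 CPM, 12022 CPM and 14586 CPM in CharmeKO, with replicate 2 lowest in each group. Pericyte and smooth muscle genes summed to 2804 ± 179 and 2763 ± 245 CPM and leukocyte genes to 45.0 ± 12.8 and 46.5 ± 6.51 CPM, with overlapping groups.

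The sums of cardiomyocyte and of epicardial genes moved with the groups. The 11 cardiomyocyte genes were all higher in CharmeKO, 2 of them past the threshold in edgeR (*Myh6* and *Tnni3*), and summed to 389, 308 and 372 CPM in WT and 660.3, 517 and 438 CPM in CharmeKO. The 6 epicardial genes were all lower, 1 of them past the threshold in edgeR (*Wt1*). They summed to 57.8, 74.9 and 58.7 CPM in WT and 34.0, 35.7 and 41.4 CPM in CharmeKO. Most of that sum was *Wt1*, at 50.7 ± 4.02 CPM in WT and 32.3 ± 1.05 CPM in CharmeKO. The other epicardial genes had means between 0.573 and 3.46 CPM over all libraries, and *Lrrn4* was the one of them with separate groups. A sum without *Wt1* was not made. Red cell genes took 2.98% of normalized counts. Of 7 such genes 6 were lower in CharmeKO, with *Slc4a1*, the anion exchanger of red cells, past the threshold in edgeR (log2 fold change −1.82, adjusted p = 0.00555). The hemoglobin gene *Hba-a1* had separate groups at −0.46 (adjusted p = 0.293 in edgeR), while the sums of the 7 genes overlapped, at 26780 CPM, 31271 CPM and 39227 CPM in WT and 25589 CPM, 31740.2 CPM and 24409 CPM in CharmeKO. *Aqp1*, *Tal1* and *Lmo2* are also used by red cells or their precursors, and the part of red cell RNA in their values was not tested. The part of cardiomyocytes, fibroblasts and mural cells in the values of the other genes, such as *Prox1*, *Gja5* and *Nr2f2*, was not tested either. Of 11 genes of the response to tissue dissociation, 6 were higher and 5 lower with a median of 0.08, and their sums overlapped between the groups. *Hspa1a* and *Hspa1b*, 2 heat shock genes, passed the threshold in edgeR and were the ones with separate groups, both higher in CharmeKO. The cardiomyocyte sums and the epicardial sums, which were mostly *Wt1*, have the same separation of the groups as *Plvap*, *Vwf* and *Ecscr*. Their part in those differences was not tested.

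**Figure D5:**
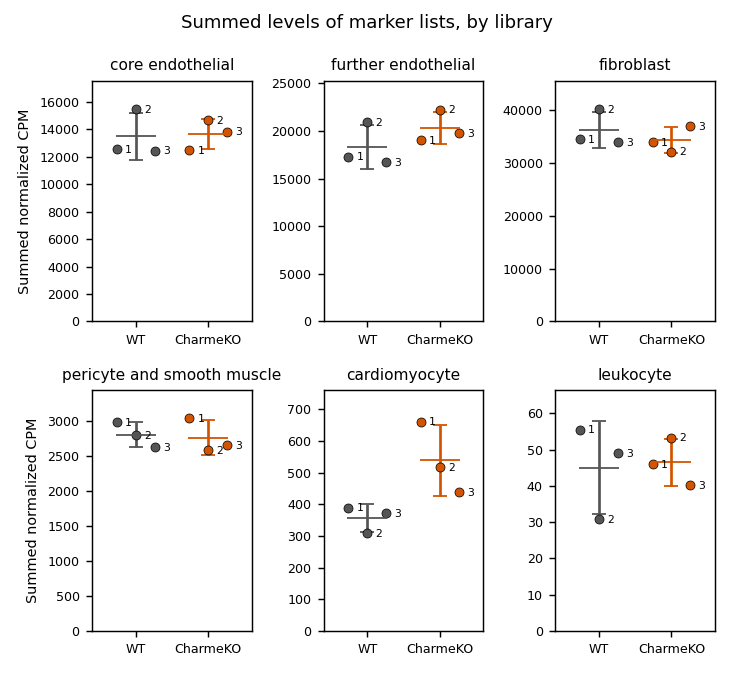
Summed normalized CPM (y axis, from 0) of 6 marker lists in each WT (grey) and CharmeKO (orange) library, with the replicate number beside each point and mean ± SD as a line and bar. The core endothelial sums overlap between the groups, and the cardiomyocyte sums do not, with 308 to 389 CPM in WT and 438 to 660.3 CPM in CharmeKO.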

How the data were processed

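The data were mRNA of native CFs in 3 WT and 3 CharmeKO libraries, grouped by their labels. The authors made directional poly(A) libraries, aligned the reads with STAR, counted them per gene of an Ensembl annotation with *Charme* added (reverse strand setting) and deposited raw counts with no normalization. The labels list the builds GRCm39 and GRCh38, and the deposited table holds no coordinates. A gene was kept if 2 or more libraries held 10 or more counts (15789 of 49548). Counts were scaled by TMM and tested in edgeR 4.0.16 (quasi-likelihood, R 4.3.3), with Benjamini-Hochberg adjustment over all tested genes and a threshold of 0.05. The dispersion shared by all genes was 0.0410 (biological coefficient of variation 20.2%). Total counts ranged from 9595701 to 42101393, and limits from a count of 0 (3 counts) cover counting error only. The test was checked on simulated counts, where it made 0 calls among 15325 genes without a change. No library duplicated another.

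The members, gene lists and motifs were chosen with earlier results of these data known. Full values are given for genes past the threshold in edgeR or DESeq2 1.42.0, with an unadjusted p under 0.05, or with the highest mean CPM of their role, and the others in ranges, counts or means, with further values chosen after they were seen. Gene lengths (99.8% of tested genes) came from GENCODE on GRCm38, and promoters from RefSeq, GRCm38.p6. With blastn 2.17.0, 1 of the 43 genes (*Ramp2*) had a tested gene aligning over at least 50% of its longest transcript at 97% identity. Alternatives were DESeq2, its size factors, upper-quartile scaling, filterByExpr, no filter, a replicate block, a *Xist* and Y-linked term, each library left out in turn and scaling on core endothelial genes. Figures used matplotlib 3.10.9 in Python 3.11.15. Cultured CFs were not analysed here.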

Additional observations from a re-analysis of the deposited data

How the results depend on the processing

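The median log2 fold change of the 43 genes, −0.02, had no stable sign. It was 0.00049 with upper-quartile scaling, 0.017 with the replicate block and 0.021 with the *Xist* and Y-linked term, and lay between −0.094 without CharmeKO replicate 2 and 0.072 without WT replicate 2 over the libraries left out. In single genes, 31 of the 43 genes kept their sign in every fit. In edgeR, 131 genes of all tested and 1 of the 43 (*Plvap*) passed. DESeq2 called 394 and 3 (*Plvap*, *Vwf*, *Ecscr*), and no filter on low counts called 699 and 6 (adding *Clec14a*, *Sox7* and *Lyve1* to those 3). The cause of these differences was not tested. With a library left out the counts were 61 to 349 of all genes and 0 to 2 of the 43, the 0 without CharmeKO replicate 1 and without CharmeKO replicate 2, and the genes whose groups do not overlap were 12 to 22, since fewer libraries overlap less often (24.7% to 34.5% of all genes).

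The replicate numbers are in the labels, and the deviations of same-numbered libraries correlated at 0.216, 0.0535 and 0.161. Pairs with different numbers correlated between −0.223 and 0.0391, so each library correlated best with its own number. The labels name no pairing and the main fit used none. Whether the libraries are paired was not tested. With the replicate number as a block, 302 genes and 2 of the 43 passed (*Ecscr*, adjusted p = 0.0351 in edgeR, and *Plvap*), and *Car4* turned to 0.017.

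*Car4* also turned, to 0.00049 with upper-quartile scaling and 0.092 with the *Xist* and Y-linked term, and with that term *Cdh5* was at 0.021 and *Sox17* at 0.018. With a library left out, log2 fold changes that took both signs ranged from −0.091 to 0.062 (*Cdh5*), −0.27 to 0.045 (*Cldn5*), −0.23 to 0.0011 (*Esam*), −0.013 to 0.10 (*Icam2*), −0.27 to 0.036 (*Tie1*), −0.11 to 0.32 (*S1pr1*), −0.30 to 0.25 (*Sox17*), −0.062 to 0.29 (*Sema3g*), −0.14 to 0.024 (*Aplnr*), −0.39 to 0.52 (*Car4*), −0.016 to 0.62 (*Aqp1*) and −0.028 to 0.37 (*Cytl1*). *Plvap* ranged from −1.06 to −0.80. WT replicate 3, with 9595701 counts, was the shallowest library, and 3 libraries a group limit what could be called.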
